A study of Mus musculus with 18 samples.

Results

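Spleens of ICR mice aged 10 weeks, an outbred laboratory stock, were profiled by RNA sequencing after a faecal microbiota transplant (FMT) labelled with AOS at 10 mg/kg, on a background of high fat diet and streptozotocin (STZ). The comparison described here sets the 3 libraries of that group (HS_AOSFMT) against the 3 libraries that had the diet and STZ alone (HS), chosen by their labels: 6 of the 18 libraries of the series. All genes with a value of at least 1 in at least 3 of the 18 libraries entered, which left 12969 of 19326 entries. The deposited values were read as FPKM from their form, since the header names no unit: fragments relative to transcript length and to the sequencing total. Of the other groups, each of 3 libraries, HS_conFMT had the diet, STZ and an FMT labelled control, HS_AOS had the diet, STZ and AOS itself at 10 mg/kg, AOS had AOS at 10 mg/kg without diet or STZ, and the control group had none of these. HS and HS_AOSFMT thus share the diet and STZ and differ by the transplant. The labels do not spell out AOS or give the sex, the doses of STZ, the length of the diet, the donors or their treatment, any preparation of the recipients for the transplant, or the hour of collection. They do not state that the 3 libraries of a group came from separate animals, so each p-value rests on the spread from library to library, which may be technical. The title of the series frames the question as whether the transplant counters the effects of diet and STZ on the spleen.

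An FMT passes the gut microbes of a donor to a recipient, and microbial products and metabolites reach immune cells through the circulation. The spleen holds T cells, B cells and dendritic cells in its white pulp, and in its red pulp macrophages clear old red cells while, in mice, new red cells are still formed. STZ is taken up by insulin-producing cells of the pancreas and kills them, and it is combined with a high fat diet as a model of diabetes. Stress hormones (glucocorticoids), signals that raise cyclic AMP, and antigen or cytokine signals each switch on well-known gene sets in lymphocytes, and these sets order the account below.

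The libraries carried the markers of spleen. The B cell receptor subunit gene Cd79a stood at 658, 817 and 795 FPKM in HS 1, 2 and 3 and at 969, 841 and 1017 in HS_AOSFMT 1, 2 and 3, the T cell receptor subunit gene Cd3e at 30.4, 37.97 and 31.1 in HS and 45.7, 41.5 and 50.9 in HS_AOSFMT, and the alpha-globin gene Hba-a1 at 122784, 138977 and 121224 in HS and 64648, 77206 and 51455 in HS_AOSFMT. Haemoglobin genes took 26.8%, 29.1% and 27.5% of all FPKM in the HS libraries and 15.3%, 17.6% and 12.9% in HS_AOSFMT, so the groups did not overlap, which was also so for 38.5% of all genes tested. None of the 8 haemoglobin genes tested was called lower by limma, as deposited or after either rescaling. Because FPKM divides a total, a smaller haemoglobin share raises the value of other transcripts, and the main counts below are therefore given next to their values after rescaling. Pancreatic acinar transcripts, which belong to another organ, took 3.34%, 0.373% and 0.542% in HS and 0.00456%, 0.00376% and 0.0121% in HS_AOSFMT. In bulk tissue, fewer cells of a type and less RNA per cell cannot be told apart. A library of another group, HS_conFMT 2, resembled HS_AOSFMT in both shares, with 14.7% haemoglobin and 0.0136% acinar transcripts, and its value is given next to those of several genes below. Other libraries lay within the HS_AOSFMT range for 1 of the shares. AOS 3 had 17.2% haemoglobin, and AOS 1 and control 3 had 0.00898% and 0.00483% acinar transcripts.

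**Figure D1:**
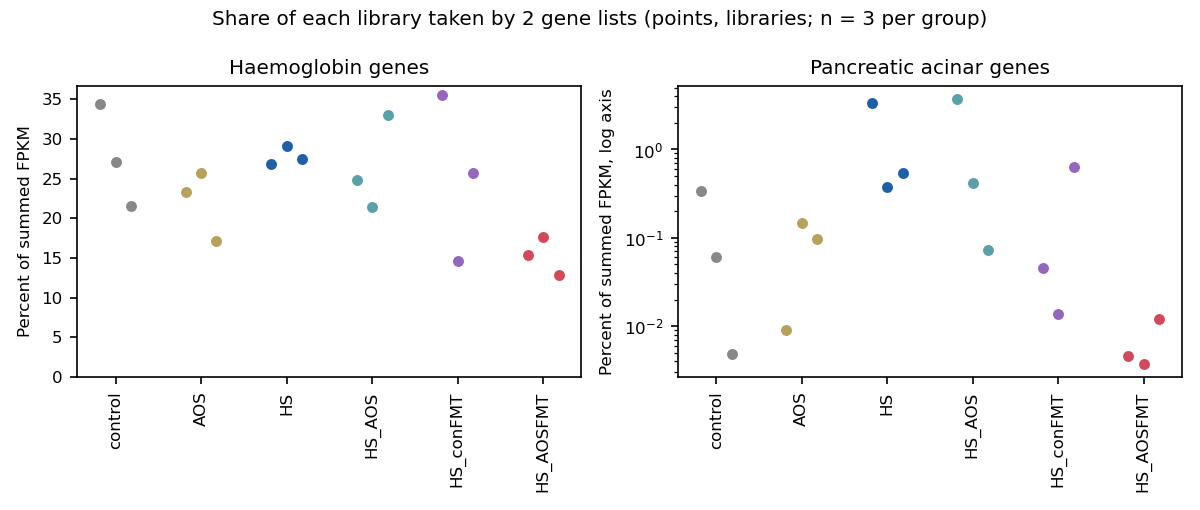
Percent of summed FPKM taken by haemoglobin genes (left, linear axis) and by pancreatic acinar genes (right, log axis) in each of the 18 libraries, with 3 points per group. The 3 HS_AOSFMT libraries lie below the 3 HS libraries in both panels, and HS_conFMT 2 lies near them at 14.7% haemoglobin.

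By the number of genes beyond all other libraries, HS_AOSFMT stood apart from every other group of the series. Of the 12969 genes tested, 1042 (8.03%) were higher in each of the 3 HS_AOSFMT libraries than in all 15 other libraries, and 177 (1.36%) were lower. For the other 5 groups the same count lay between 2 and 95 genes higher and between 15 and 48 lower, with HS at 2 and 43. After rescaling each library to its total without haemoglobin genes, the HS_AOSFMT counts were 492 higher and 376 lower, and after median-ratio scaling, which centres the genes as a whole, they were 636 and 406. The other groups then reached at most 74 higher and 65 lower. HS_AOSFMT thus had the most such genes on the deposited scale and on both others, although the balance between higher and lower depended on the scale. Whole profiles were less distinct. On the first principal component, the axis of largest spread (33.0%), HS_AOSFMT ran from 21.8 to 30.8. HS_conFMT 2 lay within that range at 25.3, and control 3 was near it at 19.4. On the second (13.2%), HS_AOSFMT ran from -16.2 to 1.75, with HS_conFMT 2 outside at 15.2 and control 3 inside at -5.43.

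**Figure D2:**
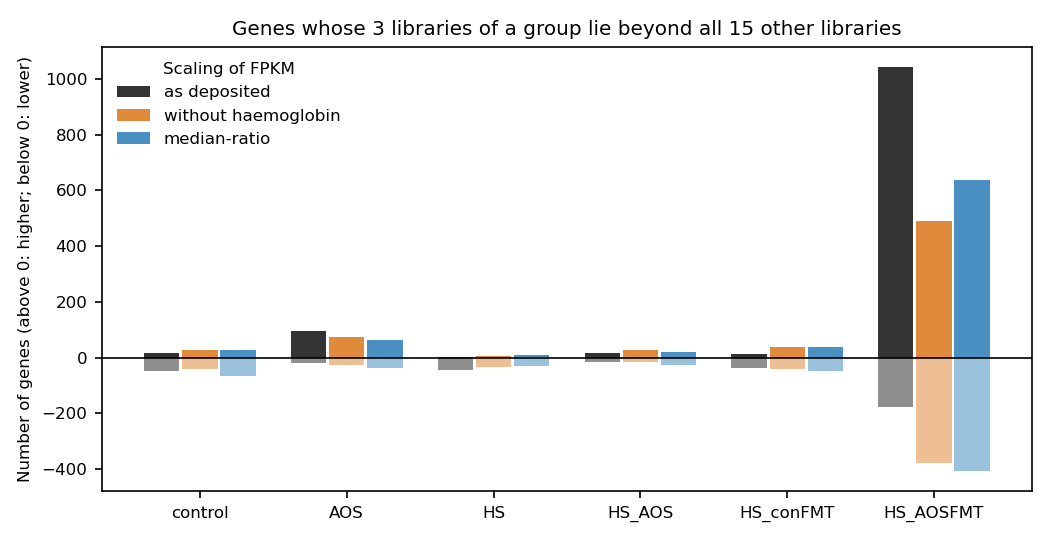
Number of genes whose 3 libraries of a group all lie above (bars upward) or all below (bars downward, paler) the 15 other libraries, for the 6 groups and 3 scalings of the FPKM values. HS_AOSFMT reaches 1042 higher and 177 lower as deposited, and no other group passes 95.

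Against HS, limma called 1048 genes higher (8.08% of those tested) and 149 lower (1.15%) at a Benjamini-Hochberg adjusted p under 0.05. The median log2 change of all genes was 0.10, and 67.4% of genes had a positive change. Rescaled to the total without haemoglobin, 272 genes (2.1%) were called higher and 126 (0.972%) lower, with a median of 0.014. With median-ratio scaling 508 (3.92%) were called higher and 283 (2.18%) lower, with a median of -0.00089. The share of calls that were rises was therefore 87.6% as deposited, 68.3% without haemoglobin and 64.2% with median-ratio scaling. Leaving out 1 library lowered both counts: to 241 rises and 23 falls without HS 1, 657 and 94 without HS 2, 346 and 30 without HS 3, 184 and 19 without HS_AOSFMT 1, 483 and 48 without HS_AOSFMT 2, and 277 and 22 without HS_AOSFMT 3. For that reason the genes below are marked where they were stable, which here means called as deposited, in each of the 6 fits that left out 1 library, after both rescalings and with a smaller pseudocount. Values given as a change from 3 numbers to 3 numbers run from HS 1, 2 and 3 to HS_AOSFMT 1, 2 and 3. In all, 135 rises (1.04% of genes tested) and 8 falls (0.0617%) were stable. Counts of called members in the gene lists below are to be read against the shares of all genes given here for each scale. Most changes were moderate: 31 called genes rose and 36 fell at least 2-fold on the log2(FPKM + 1) scale, and 22 of the called falls were acinar genes.

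**Figure D3:**
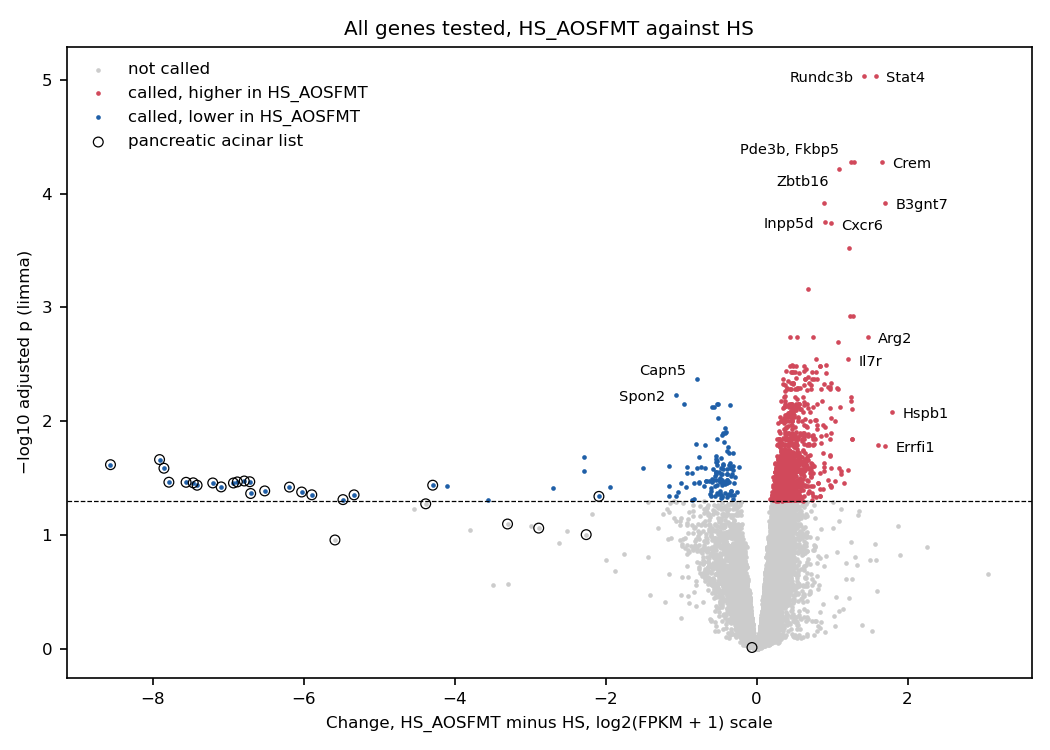
Change on the log2(FPKM + 1) scale (horizontal) against −log10 of the limma adjusted p (vertical) for all 12969 genes, HS_AOSFMT minus HS, with called rises in red, called falls in blue, the acinar list circled and the threshold dashed. Rundc3b and Stat4 have the smallest adjusted p, and the largest negative changes carry the circles of the acinar list.

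Stat4, Il7r and Satb1 were among the strongest rises. STAT4 is the transcription factor that passes the interleukin 12 signal to the nucleus in T and NK cells. Stat4 (chromosome 1, 51987148 to 52107189, mm10) stood at 16.3, 19.6 and 18.05 FPKM in HS 1, 2 and 3 and at 48.8, 54.01 and 64.8 in HS_AOSFMT 1, 2 and 3. Every HS_AOSFMT library was far higher than every other library, since the 12 libraries of the remaining groups ran from 15.1 to 21.03, with 20.6 in HS_conFMT 2. The log2 change was 1.58 (SE 0.12, limma adjusted p = 9.21e-06), and the call was stable. Il7r encodes the interleukin 7 receptor chain that keeps resting T cells alive. It stood at 13.1, 20.7 and 15.95 in HS and 42.65, 34.5 and 41.02 in HS_AOSFMT (log2 change 1.22, limma adjusted p = 0.00286, stable), above the 10.8 to 27.2 of the other groups. Satb1, an organiser of chromatin in T cells, rose from 18.9, 29.8 and 26.1 to 50.03, 53.6 and 55.3 FPKM (log2 change 1.08, limma adjusted p = 0.00522, stable). The groups did not overlap for these 3 genes, as for 1046 of the 1048 called rises and 38.5% of all genes tested. Of the 18 tested genes of the naive T cell list, which holds Il7r and Satb1, 3 were called higher and 0 lower (2 higher without haemoglobin, and 2 higher and 1 lower with median-ratio scaling), against 8.08% and 1.15% of all genes, with a median of 0.16.

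Few other genes of the interleukin 12 and Th1 list passed the test. Of its 17 tested members 3 were called higher and 0 lower, against 8.08% and 1.15% of all genes, with a median log2 change of 0.17 (0.08 without haemoglobin). Beside Stat4 these were both chains of the interferon gamma receptor. Ifngr1, the ligand-binding chain, rose from 57.75, 67.7 and 58.1 to 102, 88.5 and 97.4 FPKM (log2 change 0.64, stable). Ifngr2, the signalling chain, rose from 39.4, 44.2 and 40.9 to 52.2, 53.1 and 54.45 (log2 change 0.35), a call that ended without haemoglobin (limma adjusted p = 0.109) and without HS 1 or 3 or HS_AOSFMT 1, 2 or 3. The interleukin 12 receptor chain gene Il12rb2 stood at 1.72, 2.09 and 2.29 in HS and 2.06, 2.53 and 2.99 in HS_AOSFMT, and the Th1 master regulator gene Tbx21 at 10.1, 8.75 and 6.57 in HS and 7.52, 6.54 and 8.88 in HS_AOSFMT. Interferon gamma itself (Ifng) stood at 0.92, 1.55 and 1.75 in HS and 1.28, 1.34 and 1.29 in HS_AOSFMT. None of these last 3 was called, and their groups overlapped.

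T cell receptor genes were called less firmly. All 20 tested members of the T cell receptor list had a positive change (median 0.44 against 0.10 for all genes). Of them 6 were called higher as deposited, 1 without haemoglobin and 5 with median-ratio scaling. The shares of all genes called higher on these scales were 8.08%, 2.1% and 3.92%. The count was 6 without HS 2 and 3 without HS_AOSFMT 2, 1 without HS 1 or HS 3, and 0 without HS_AOSFMT 1 or 3. The adaptor gene Lat, which links the receptor to its enzymes, kept its call without haemoglobin, at 65.3, 72.3 and 57.6 FPKM in HS and 105, 92.8 and 115 in HS_AOSFMT (log2 change 0.67, limma adjusted p = 0.0112), and lost it without HS_AOSFMT 1 or 3 (adjusted p up to 0.0533). Trat1, another adaptor, had the largest change of the list, from 5.24, 11.55 and 8.37 to 17.7, 18.7 and 19.2 (log2 change 1.11). The CD3 chain gene Cd3d rose from 26.5, 36.9 and 29.98 to 50.04, 47.6 and 53.3, and Cd3g from 64.4, 84.5 and 65.9 to 119, 106 and 132. The Trat1 call ended without HS 1 or 3 or HS_AOSFMT 1, 2 or 3, and those of Cd3d and Cd3g without HS 1 or 3 or HS_AOSFMT 1 or 3. The coreceptor genes Cd4 and Cd8a were not called (log2 changes 0.37 and 0.35). The list took 0.142%, 0.123% and 0.162% of all FPKM in HS_AOSFMT 1, 2 and 3, and HS_conFMT 2 lay within that range at 0.143%. The fall in haemoglobin share moved with this list, and beyond the rescaling its part in these rises was not tested.

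Further lymphocyte surface genes rose. Cxcr6, a chemokine receptor of effector and tissue-resident T and NK cells, stood at 4.2, 4.56 and 4.97 FPKM in HS and 9.98, 10.1 and 9.9 in HS_AOSFMT (log2 change 0.98, limma adjusted p = 0.000183, stable). The next highest Cxcr6 values of the series were those of HS_AOS, at 5.75, 8.03 and 7.47. Gpr171, a receptor found on T cells, rose from 19.4, 32.2 and 31.15 to 68.7, 64.7 and 65.3 (log2 change 1.27), a call lost without HS 1 or HS_AOSFMT 1. Among 18 costimulation, checkpoint and regulatory T cell genes 3 were called higher and all 18 had a positive change (median 0.39), against 8.08% called and 67.4% positive of all genes. The count was 1 without haemoglobin, 3 with median-ratio scaling, 3 without HS 2 or HS_AOSFMT 2, 2 without HS 3, 1 without HS 1 or HS_AOSFMT 3 and 0 without HS_AOSFMT 1. The 3 were Tnfrsf18, the GITR receptor (16.6, 16.02 and 17.4 to 32.2, 25.9 and 31.5), Havcr2, the checkpoint TIM-3 (5.9, 6.94 and 7.79 to 10.7, 10.6 and 11.7), and Cd27, a costimulatory receptor (20.15, 28.4 and 25.02 to 43.5, 35.8 and 44.9). The Tnfrsf18 call ended without HS_AOSFMT 1, that of Havcr2 without HS 1 or HS_AOSFMT 1 or 3 and that of Cd27 without HS 1 or 3 or HS_AOSFMT 1 or 3. For Tnfrsf18 and Cd27 the HS_AOSFMT libraries were not all above the 15 others. The list took 0.0449%, 0.0397% and 0.0478% of all FPKM in HS_AOSFMT 1, 2 and 3 and 0.0485% in HS_conFMT 2. Against HS_conFMT 0 of its members were called higher and 0 lower. Of 20 chemokine receptor and homing genes, Ccr3, an eosinophil receptor, fell from 5.91, 9.1 and 10.4 to 3.39, 4.37 and 5.52, and Cx3cr1, the fractalkine receptor of monocytes, fell from 7.61, 7.15 and 6.34 to 4.68, 3.78 and 5.39. Both falls remained called after both rescalings, and that of Ccr3 was lost without HS 2 or 3 or HS_AOSFMT 1 or 2 and that of Cx3cr1 without HS 1 or 2 or HS_AOSFMT 1 or 2. Cd86, the ligand with which antigen-presenting cells costimulate T cells, rose from 23.7, 24.5 and 25.8 to 46.35, 43.5 and 45.75 (log2 change 0.85, stable), the 1 called gene of 14 in antigen presentation by class II.

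**Figure D4:**
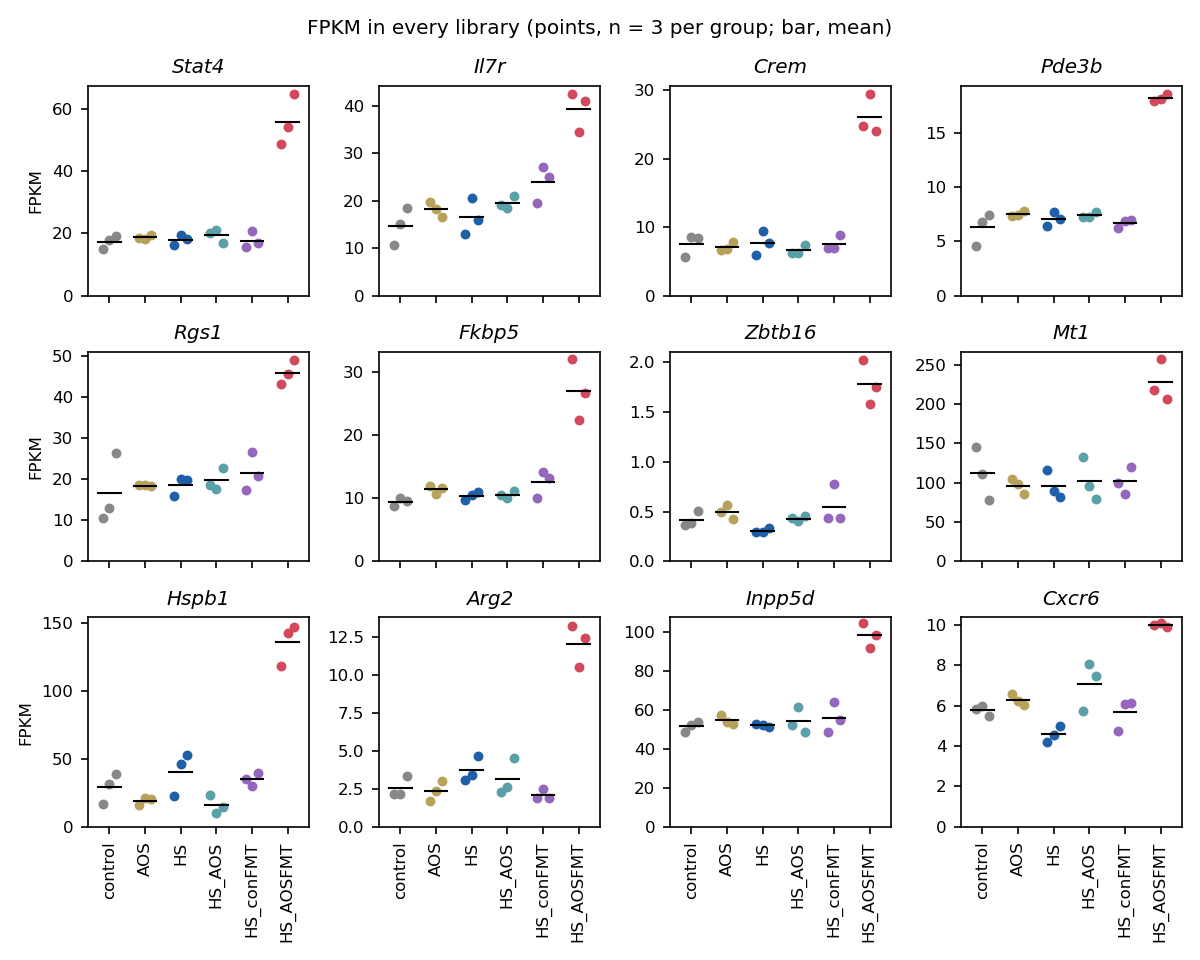
FPKM of 12 genes (panels, linear axes from 0) in each of the 18 libraries, coloured by group, with 3 points per group and a bar at the mean. In all 12 panels, Stat4, Il7r, Crem and Mt1 among them, the 3 HS_AOSFMT points lie above the 15 others, as in 8.03% of all genes tested. For Zbtb16 this followed from the filter on low values.

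Most genes of the cyclic AMP list were called higher as deposited, and fewer after rescaling. Cyclic AMP activates protein kinase A, which switches on CREB target genes, several of which feed back to end the signal. Of 15 tested members 9 were called higher and 0 lower, against 8.08% and 1.15% of all genes, with a median of 0.56. Without haemoglobin 5 were called (median 0.49), with median-ratio scaling 7 (median 0.48). The count was 8 without HS 2, 6 without HS_AOSFMT 2, 5 without HS 3 or HS_AOSFMT 3, and 4 without HS 1 or HS_AOSFMT 1. Crem, which encodes the cAMP response element modulator and its early repressor, stood at 5.89, 9.43 and 7.64 FPKM in HS and 24.7, 29.4 and 24.1 in HS_AOSFMT (log2 change 1.66, SE 0.16, limma adjusted p = 5.29e-05, stable). No other library of the series passed 9.43, and HS_conFMT 2 had 6.94. Pde3b (chromosome 7, 114415281 to 114539251), a phosphodiesterase that breaks down cyclic AMP, stood at 6.4, 7.73 and 7.08 in HS and 17.98, 18.1 and 18.6 in HS_AOSFMT (log2 change 1.26, adjusted p = 5.29e-05 by limma, stable). Its HS_AOSFMT values agreed closely among themselves, and the 15 other libraries ran from 4.62 to 7.77.

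Further members passed the test with smaller changes. Pde4d, another phosphodiesterase, rose from 3.56, 3.72 and 4.11 to 8.16, 7.12 and 6.42 FPKM (log2 change 0.78), a call lost without HS 1 or HS_AOSFMT 1. Rgs1, a brake on G protein signals from chemokine receptors, rose from 15.9, 20.04 and 19.8 to 43.3, 45.7 and 49.2 (log2 change 1.27, limma adjusted p = 0.00782, stable). Fosl2, a partner of JUN, rose from 3.73, 4.39 and 3.32 to 7.7, 8.08 and 6.92 (log2 change 0.84, stable). Ptger4, the prostaglandin E2 receptor EP4 that raises cyclic AMP, rose from 8.98, 9.01 and 8.76 to 12.04, 11.9 and 12.9 (log2 change 0.42), although HS_conFMT 2 reached 13.1 and the call ended without HS 1 or 3 or HS_AOSFMT 1 or 3. The orphan nuclear receptor genes Nr4a1 and Nr4a3 changed by 0.68 and 0.56, and both lost their calls without haemoglobin (limma adjusted p = 0.119 and 0.0744) and without any 1 of the 6 libraries for Nr4a1 or without HS 1 or 3 or HS_AOSFMT 1, 2 or 3 for Nr4a3. Prkar1a, a regulatory subunit of protein kinase A that was picked after its values were seen, rose from 95.45, 96.2 and 97.6 to 141, 129 and 131 (log2 change 0.47, stable). Of the 6 called members with a promoter window in RefSeq, 0 held the full cAMP response element TGACGTCA between 250 bases before and 50 after the start, a motif found in 1.79% of all 32851 windows, and its absence says nothing of the factor.

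Glucocorticoid-induced genes had the largest median of the lists in which several members were called. The hormone receptor enters the nucleus on binding its ligand and raises a set of anti-inflammatory and metabolic genes in most cell types. Of 18 tested members 9 were called higher and 0 lower, against 8.08% and 1.15% of all genes. The change was positive for 17 (median 0.76), against 67.4% of all genes. Without haemoglobin 7 were called (median 0.67). The count was 9 without HS 2, 7 without HS_AOSFMT 2, 5 without HS_AOSFMT 3, 4 without HS 1, and 3 without HS 3 or HS_AOSFMT 1. Fkbp5 (chromosome 17, 28399094 to 28517527), a co-chaperone that dampens the receptor, stood at 9.71, 10.5 and 10.9 FPKM in HS and 32, 22.3 and 26.6 in HS_AOSFMT (log2 change 1.29, limma adjusted p = 5.29e-05, stable). Zbtb16, which encodes the transcription factor PLZF of innate-like T cells and is also raised by glucocorticoids, stood at 0.29, 0.29 and 0.33 in HS and 2.02, 1.58 and 1.75 in HS_AOSFMT. It was below 1 FPKM in all 12 libraries of the other groups (0.36 to 0.78), and the log2(FPKM + 1) change of 1.09 understates its ratio. It passed the filter on low values only through the 3 HS_AOSFMT libraries, so it had to be higher there. Its call and its positive change are included in the list counts above and lend them no support. The receptor gene Nr3c1 itself stood at 24.4, 30.1 and 33.9 in HS and 39.7, 40.6 and 39.01 in HS_AOSFMT and was not called (limma adjusted p = 0.101).

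Other members depended more on single libraries or were also high after the control transplant. Errfi1, a feedback inhibitor of the EGF receptor, was the next largest called rise after Hspb1, from 7.46, 12.1 and 9.34 to 39.1, 34.8 and 26.7 FPKM (log2 change 1.71, limma adjusted p = 0.0164), but HS_conFMT 3 reached 48.7 and the call ended without HS 1, HS 3 or HS_AOSFMT 1. Tsc22d3, which encodes the glucocorticoid-induced leucine zipper GILZ, stood at 60.7, 107 and 76.6 in HS, 144, 135 and 149 in HS_AOSFMT and 104, 137 and 144 in HS_conFMT. Its call (limma adjusted p = 0.0451) ended without haemoglobin (adjusted p = 0.107), and without HS 1 or 3 or HS_AOSFMT 1, 2 or 3, and against HS_conFMT it was not called (adjusted p = 0.736). Klf9, a transcription factor raised early by the hormone, went from 3.66, 4.85 and 4.58 to 7.03, 5.52 and 7.27 (log2 change 0.50) and lost its call without haemoglobin (adjusted p = 0.0753) and without HS 1 or 3 or HS_AOSFMT 1 or 3. Pik3ip1, an inhibitor of PI3 kinase in resting T cells, rose from 8.95, 16.6 and 11.2 to 23.8, 20.65 and 28.9, a call lost without HS 1 or 3 or HS_AOSFMT 1 or 3. The haemoglobin-scavenger receptor gene Cd163, also a glucocorticoid target in macrophages, had the 1 negative change of the list (-0.55) and was not called.

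The metallothionein genes Mt1 and Mt2 lie next to each other on chromosome 8 and encode small proteins that bind zinc and copper. Metals induce them through metal response elements, and glucocorticoids also induce them. Mt1 stood at 116, 89.4 and 81.5 FPKM in HS and 218, 258 and 207 in HS_AOSFMT (log2 change 1.25, limma adjusted p = 0.00612, stable). Mt2 stood at 104, 70.1 and 78.7 in HS and 156, 205 and 136 in HS_AOSFMT (log2 change 0.97, limma adjusted p = 0.0199), and it lost its call without HS 2, HS 3, HS_AOSFMT 1 or HS_AOSFMT 2 and, barely, with median-ratio scaling (adjusted p = 0.0573). For both genes the 3 HS_AOSFMT libraries were above the 15 others, as for 8.03% of all genes, with HS_AOSFMT 2 the highest. None of the 12 zinc transporters of the list was called by limma, with log2 changes from -0.08 for Slc39a4 to 0.27 for Slc30a7. The bases before the start of each gene are printed because the 2 neighbours moved together and letters of known response elements can be read in them. They come from RefSeq on GRCm38.p6, plus strand, 5′ to 3′, chr8:94178839-94179088 for Mt1 and chr8:94172368-94172617 for Mt2, with matches in capitals.
Mt1: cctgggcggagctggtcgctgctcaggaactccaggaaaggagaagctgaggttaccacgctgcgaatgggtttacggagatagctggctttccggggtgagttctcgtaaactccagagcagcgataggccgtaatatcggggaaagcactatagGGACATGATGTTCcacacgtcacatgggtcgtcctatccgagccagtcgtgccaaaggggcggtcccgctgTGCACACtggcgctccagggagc
Mt2: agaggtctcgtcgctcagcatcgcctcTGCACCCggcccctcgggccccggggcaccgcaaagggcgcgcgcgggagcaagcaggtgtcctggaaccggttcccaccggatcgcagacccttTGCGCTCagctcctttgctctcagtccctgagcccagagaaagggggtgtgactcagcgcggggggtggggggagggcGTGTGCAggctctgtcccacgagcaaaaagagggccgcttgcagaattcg
The glucocorticoid receptor motif is here the half-site GNACA, 3 free bases and the half-site TGTNC. This pattern reads the same on both strands, though the matched bases do not. In Mt1 the capitals mark 1 match to it, which starts at position -94 from the gene's start, and 1 match to the metal response core TGCACNC at position -23. In Mt2 they mark 2 matches to TGCACNC, at -223 and -50, and 1 to the related core TGCGCNC at -128, on either strand. The printed bases of Mt1 hold no match to TGCGCNC. Over the whole scanned window, which also takes in 50 bases after the start, both genes matched it. The receptor motif occurred in 0.475% of all 32851 promoter windows and in 2 of the 17 list members that have a window, of which Mt1 was the 1 called. The cores TGCGCNC and TGCACNC occurred in 15.4% and 12.6% of windows, so a single match is common. A match describes letters and does not show binding.

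Clock genes were higher, with the hour of collection unknown. The circadian clock is a feedback loop in which CLOCK and ARNTL drive their own repressors, and glucocorticoids reset it through Per1 and Per2. Of 16 tested members 7 were called higher and 0 lower, against 8.08% and 1.15% of all genes. All 16 were positive (median 0.43), against 67.4% of all genes. Without haemoglobin 6 were called (median 0.35). The count was 6 without HS 2 or HS_AOSFMT 2, 4 without HS 1 or HS_AOSFMT 1, 3 without HS 3 and 2 without HS_AOSFMT 3. The repressor gene Per2 stood at 2.1, 2.27 and 2.76 FPKM in HS and 4.86, 4.54 and 4.64 in HS_AOSFMT (log2 change 0.75, limma adjusted p = 0.00427, stable), with 2.88, 4.08 and 3.68 in HS_conFMT. Nfil3, a repressor of clock output that is also needed for NK cells, rose from 3.73, 3.42 and 3.64 to 6.12, 6.47 and 5.5 (log2 change 0.61, stable) and stood at 2.11, 3.17 and 2.5 in HS_conFMT. Bhlhe40, a repressor of the loop with roles in activated T cells, rose from 16.6, 16.2 and 13.3 to 22.9, 27.6 and 24.8, a call lost without HS 3 or HS_AOSFMT 2 or 3.

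Several clock genes were as high or higher in groups without the AOS transplant. Nr1d1, the repressor REV-ERB alpha, stood at 3.94, 3.44 and 3.46 FPKM in HS and 6.51, 7.09 and 9.7 in HS_AOSFMT, but at 9.38, 10.6 and 8.51 in HS_conFMT and 8.56, 8.04 and 6.12 in HS_AOS, and its call against HS ended without HS_AOSFMT 3. The output gene Dbp stood at 6.16, 5.32 and 5.41 in HS and 9, 7.09 and 10.1 in HS_AOSFMT and was not called against HS (limma adjusted p = 0.103), and at 15.5, 24.45 and 15.75 in HS_conFMT it was higher than in HS_AOSFMT (adjusted p = 0.0134). The driver Arntl stood at 7, 9.7 and 8.97 in HS and 9.85, 7.89 and 8.61 in HS_AOSFMT, with overlapping groups. Hour and group cannot be told apart for these genes. Over the list, 2 members were called higher and 3 lower against HS_conFMT (4.81% and 1.04% of all genes), with a median of -0.04.

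A single gene among the heat shock chaperones passed the test. Hspb1, which encodes the small chaperone HSP27, had the largest called rise of all genes, from 23.1, 46.6 and 52.8 FPKM in HS to 119, 143 and 148 in HS_AOSFMT (log2 change 1.79, SE 0.33, limma adjusted p = 0.0083, stable). It varied within HS, where HS 1 was lowest, and the other groups ran from 9.97 to 39.9. It was the 1 called member among 17 cytosolic chaperones, whose median was 0.44 and moved to 0.11 without HS 1 and 0.27 without HS_AOSFMT 2. The inducible HSP70 gene Hspa1a stood at 7.25, 30.1 and 53.2 in HS and 13.4, 22.2 and 18.6 in HS_AOSFMT, and its partner Dnajb1 at 40.15, 83.3 and 93.2 in HS and 39.7, 51.8 and 32.8 in HS_AOSFMT, neither called and both with overlapping groups. Against HS_AOS, which shares the HS_AOSFMT libraries with this comparison, 9 of the 17 were called higher (median 1.15), where 6.42% of all genes were.

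Few genes of protein folding in the endoplasmic reticulum passed the test against HS. Of 20 tested members 2 were called higher, a share near the 8.08% of all genes, and 1 without haemoglobin. Of the 20, 19 were positive, and 16 without haemoglobin (median 0.25, 0.16 without haemoglobin). Derl2, part of the channel that removes misfolded proteins, rose from 12.7, 12.8 and 11.9 to 16.15, 16.1 and 16.6 FPKM (log2 change 0.36, limma adjusted p = 0.00754, stable). Pdia3, a disulphide isomerase that also loads class I molecules, rose from 187, 207 and 219 to 269, 280.1 and 283, a call that ended without haemoglobin (adjusted p = 0.0557) and without HS 1 or HS_AOSFMT 1, 2 or 3. The chaperone gene Hspa5 just missed the threshold against HS (255, 295 and 307 in HS and 355, 398 and 394 in HS_AOSFMT, adjusted p = 0.0553) and was called against HS_conFMT (adjusted p = 0.00433). Over the list 13 members were called higher against HS_conFMT (median 0.54) and 14 against HS_AOS (median 0.49), where 4.81% and 6.42% of all genes were. Sil1, the exchange factor that resets HSPA5, went the other way and was a stable fall, from 10.5, 10.1 and 10.2 to 6.1, 5.85 and 7.65 (log2 change -0.58).

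Inpp5d had the smallest adjusted p of the insulin and PI3 kinase list. Inpp5d (chromosome 1, 87620312 to 87720507) encodes SHIP1, the phosphatase that removes the lipid made by PI3 kinase in blood cells. It stood at 52.8, 52.2 and 51.3 FPKM in HS and 105, 91.9 and 98.2 in HS_AOSFMT (log2 change 0.90, limma adjusted p = 0.000177, stable), and HS_conFMT 2 had 64.3, the highest of the 15 others. Of 26 genes of the insulin and PI3 kinase pathway 4 were called higher and 0 lower, against 8.08% and 1.15% of all genes. Without haemoglobin 2 were higher, against 2.1% of all genes. The median was 0.12, close to the 0.10 of all genes. Beside Inpp5d the 4 called as deposited included Rheb, which activates mTORC1 (42.8, 41.98 and 43.9 to 55.4, 54.9 and 54.4, stable), and Pik3cg, a PI3 kinase subunit of leukocytes (11.8, 10.3 and 9.84 to 16.04, 12.6 and 14.6). Pik3cg lost its call without haemoglobin (adjusted p = 0.105 by limma) and without HS 1, 2 or 3 or HS_AOSFMT 1 or 3. 5 further stable rises, members of none of the lists, were picked after their values were seen. Ptpn22, a phosphatase that restrains the T cell receptor, rose from 30.8, 36.3 and 34.4 to 71.25, 62.9 and 67.98. Pag1, a membrane adaptor that recruits the inhibitory kinase CSK, rose from 11.5, 12.7 and 13.2 to 22.1, 21.6 and 23.3. Dusp6, a phosphatase of ERK, rose from 15.4, 17.3 and 17.75 to 33.4, 33.5 and 32.9, and Phlpp1, a phosphatase of AKT, from 3.51, 3.35 and 3.71 to 7.06, 7.34 and 6.83. Stk17b, a kinase that sets the threshold of T cell activation, rose from 107, 141 and 121 to 239, 229.8 and 303. Their log2 changes lay between 0.79 and 1.06. For each of them the HS_AOSFMT libraries were above the 15 others, as for 8.03% of all genes, which adds no support since their values were known.

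Regulators of quiescence, immediate early genes and inflammatory genes contained some calls. Of 18 factors of quiescence and mRNA decay 6 were called higher, 1 of them without haemoglobin (median 0.32 and 0.22), against 8.08% and 2.1% of all genes. That 1 was Zfp36l2, which marks AU-rich mRNAs for decay, at 60.85, 82.8 and 70.7 FPKM in HS and 141, 146 and 137 in HS_AOSFMT (log2 change 0.99, limma adjusted p = 0.00456, stable). It was intermediate in HS_conFMT, at 100.5, 116 and 121, and not called against it (adjusted p = 0.236). Of 18 immediate early genes 6 were called higher, 2 without haemoglobin, and of these Fosl2 was stable. Of 17 inflammatory NF-kB targets 4 were called higher and all 17 were positive (median 0.35), against 8.08% and 67.4% of all genes. The count was 2 without haemoglobin and 3 with median-ratio scaling, 3 without HS 3 or HS_AOSFMT 1, 2 without HS 2 or HS_AOSFMT 2, and 0 without HS 1 or HS_AOSFMT 3. The cytokine gene Il1b stood at 13.1, 15.98 and 20.65 in HS and 24.2, 33.95 and 36.6 in HS_AOSFMT, with 25.3, 17.8 and 24.2 in control, and its call ended without haemoglobin (adjusted p = 0.0638 by limma) and without HS 1 or 2 or HS_AOSFMT 2 or 3. Nfkbiz, an inducible cofactor of NF-kB, rose from 11.4, 12.4 and 14.2 to 19.1, 19.6 and 21.3 and kept its call under both rescalings, but not without HS 1 or HS_AOSFMT 3. Cd14, the coreceptor that hands lipopolysaccharide to TLR4, rose from 7.28, 7.98 and 7.91 to 10.4, 12.5 and 17.4 (log2 change 0.70), with HS_AOSFMT 3 the highest, and its call ended without HS 1 or HS_AOSFMT 3. Of the 23 Toll-like receptor genes 3 were called higher, against 8.08% of all genes. The count was 1 after either rescaling, and 0 to 2 with a library left out (0 without HS 1 or HS_AOSFMT 3). Of 21 interferon response genes limma called 0 (median -0.13, but 0.25 without HS 3).

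In TGF-beta signalling, 4 of 18 genes were called higher (median 0.28), against 8.08% of all genes. The count was 2 without haemoglobin, 3 with median-ratio scaling, 2 without HS 2, HS 3 or HS_AOSFMT 1 and 1 without HS 1, HS_AOSFMT 2 or HS_AOSFMT 3. Id1, an inhibitor of differentiation induced by BMP signals, stood at 6.12, 4.83 and 4.91 FPKM in HS and 11.4, 11.5 and 11.2 in HS_AOSFMT (log2 change 0.98, limma adjusted p = 0.00931, stable). The 12 libraries of the other groups ran from 4.69 to 10.4, so the HS values lay in the lower part of the series. Tnfrsf12a, the receptor of the cytokine TWEAK, rose from 4.26, 2.79 and 3.88 to 9.54, 12.9 and 8.2 (log2 change 1.26), a call lost without HS_AOSFMT 1 or 2. Socs3, a feedback inhibitor of cytokine receptors, rose from 10.8, 11.7 and 10.5 to 15.4, 23.4 and 24.25, 1 of 3 called among 26 cytokine receptor genes, and lost its call without HS 1 or HS_AOSFMT 3.

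Single metabolic enzymes passed the test within lists that held few other calls. Arg2 (chromosome 12, 79130777 to 79156301), the mitochondrial arginase, stood at 3.07, 3.45 and 4.7 FPKM in HS and 13.25, 10.5 and 12.5 in HS_AOSFMT (log2 change 1.47, limma adjusted p = 0.0018, stable). It was the 1 called gene of 16 in arginine and polyamine metabolism, whose median was -0.029, and the other groups ran from 1.7 to 4.57. Pdk4, which shuts pyruvate out of the citric acid cycle and responds to fasting and glucocorticoids, rose from 4.84, 7.74 and 3.31 to 15.3, 11.2 and 13.98 (log2 change 1.25, stable), the 1 called gene of 22 in fatty acid oxidation. P4ha2, a collagen prolyl hydroxylase, rose from 1.39, 2.87 and 1.95 to 4.69, 5.14 and 4.91 (log2 change 0.97, stable), and the hypoxia regulator gene Hif1a from 27.8, 31.6 and 28.3 to 43.3, 41.5 and 42.75, 2 of 3 called among 17 hypoxia targets, with the Hif1a call lost without HS 1 or 3 or HS_AOSFMT 1 or 3. The oxygen sensor gene Egln2 (25.3, 28.8 and 24.9 to 45.1, 42 and 47.2) and Hilpda, a hypoxia-induced lipid droplet protein (9.57, 8.74 and 7.25 to 17.4, 15.4 and 16), were stable rises too and were picked after their values were seen. In cholesterol metabolism 3 of 23 genes were called lower and 2 higher, against 1.15% and 8.08% of all genes. The counts were 4 and 0 without haemoglobin, and 3 and 1 with median-ratio scaling. With any 1 of the 6 libraries left out 0 were called higher, and 2 were called lower without HS 2, 1 without HS 1 or HS_AOSFMT 2 and 0 without HS 3, HS_AOSFMT 1 or HS_AOSFMT 3. Abca1, a cholesterol exporter, rose from 9.68, 10.4 and 9.3 to 15.4, 13.4 and 16.7, though it lost its call without haemoglobin (adjusted p = 0.091) or without any 1 of the 6 libraries. Oxidative phosphorylation (28 genes), glycolysis (21), the proteasome (24) and the lysosome and autophagy list (23) had 0 called members, with medians of 0.019, 0.06, 0.08 and 0.046. Each of these 4 medians turned negative under both rescalings.

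The remaining genes of the smallest p belong to no list. Rundc3b (chromosome 5, 8490334 to 8622952), whose product carries a RUN domain, stood at 0.89, 1.09 and 1.11 FPKM in HS and 4.37, 4.41 and 4.47 in HS_AOSFMT (log2 change 1.42, SE 0.11, limma adjusted p = 9.21e-06), and the 15 other libraries ran from 0.75 to 1.49. It had the smallest adjusted p of the comparison together with Stat4. B3gnt7 and Chst10 encode enzymes that build and sulphate cell surface glycans. B3gnt7 (chromosome 1, 86302832 to 86307305) rose from 2.09, 3.85 and 1.98 to 10.3, 11.1 and 10.3 (log2 change 1.70, limma adjusted p = 0.000121), and Chst10 from 6.55, 10.1 and 10.4 to 22.1, 21.9 and 25.1 (log2 change 1.28). Sorl1, a sorting receptor, rose from 24.8, 28.3 and 28.6 to 66.6, 61.9 and 68.6 (log2 change 1.24), with 42.03 in HS_conFMT 2. Cables1, a partner of cyclin-dependent kinases, rose from 1.59, 1.79 and 2.05 to 3.94, 4.34 and 4.39. Ccnc, cyclin C of the Mediator complex, was also higher. Gpr137c rose from 1.66, 2.14 and 2.09 to 5.57, 6.09 and 6.16 and Armc9, a protein of the ciliary base, from 6.5, 5.27 and 6.23 to 9.55, 11.4 and 9.7. These 8 genes were stable. In each the 3 HS_AOSFMT libraries exceeded the 15 others, as in 8.03% of all genes, which adds little for genes picked by their small p.

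**Figure D5:**
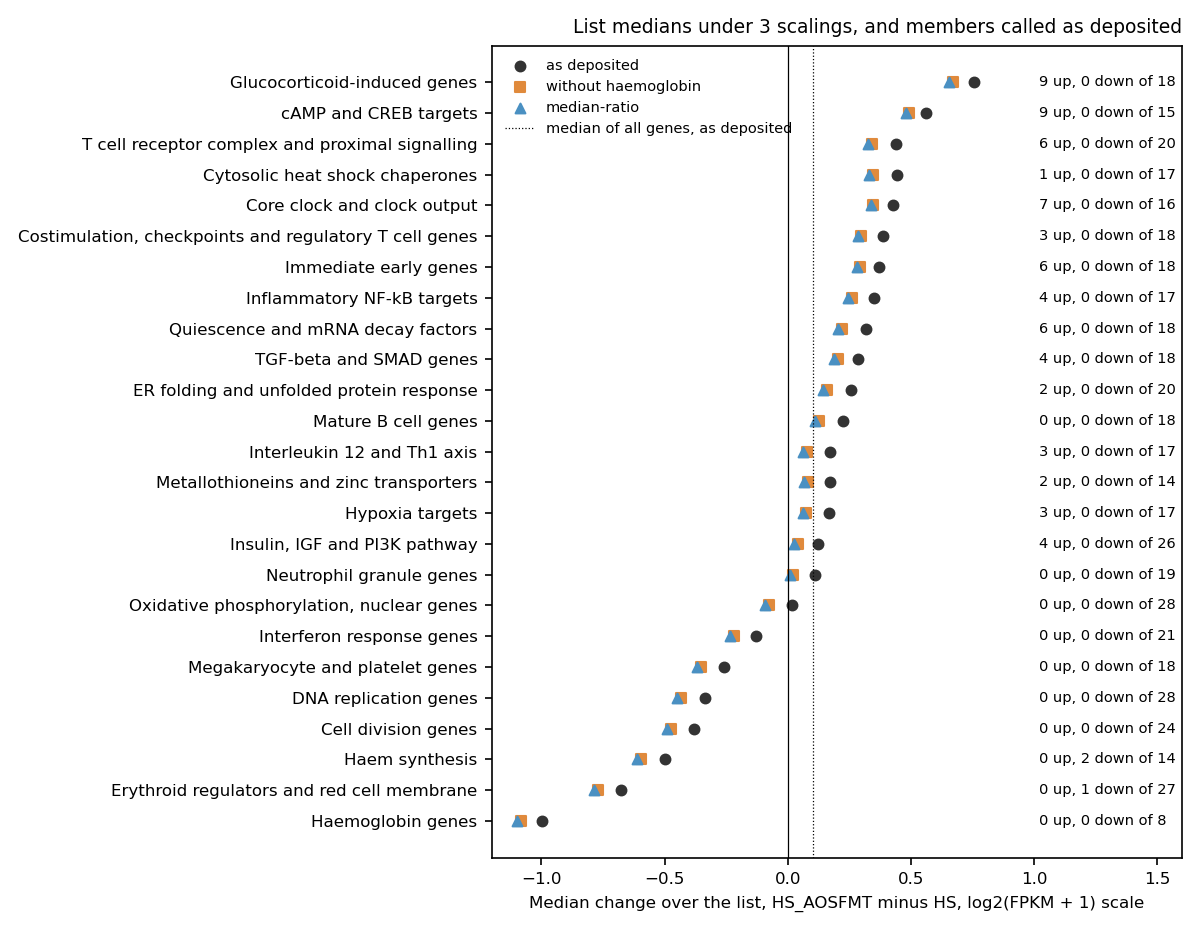
Median log2(FPKM + 1) change of 25 gene lists, HS_AOSFMT minus HS, as deposited (circles), rescaled to the total without haemoglobin (squares) and with median-ratio scaling (triangles), with the members called as deposited at the right and the median of all genes dotted. Of the 25 shown, a selection from the 69 lists, glucocorticoid-induced genes have the highest median and haemoglobin genes the lowest. The adipocyte list (median 1.42) and the acinar list (median -6.61) lie beyond these and are not shown. Both rescalings shift each list shown to the left by a similar amount.

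Few red cell genes passed the test. All 27 tested erythroid regulators and red cell membrane genes had a negative change (median -0.68, -0.77 without haemoglobin), and 1 was called lower against 1.15% of all genes. Their summed level overlapped between the groups: HS_AOSFMT 2, at 4055 FPKM, lay above HS 2, at 4028. The called gene was Bpgm, which makes the red cell metabolite that lowers the oxygen affinity of haemoglobin, at 171, 172 and 179 FPKM in HS and 72.8, 90.3 and 69.4 in HS_AOSFMT (log2 change -1.16, limma adjusted p = 0.0246). In haem synthesis 2 of 14 were called lower, Fech, the enzyme that inserts iron (217, 174 and 192 to 85.8, 107 and 69.95), and Alas2, the first enzyme of the red cell pathway (657, 638 and 627 to 287, 349 and 235). Both lost their calls when any 1 of the 6 libraries was left out and when rescaled without haemoglobin, and Bpgm lost its call without HS 1, 2 or 3 or HS_AOSFMT 1 or 3. Further genes with known roles in maturing red cells were among the largest called falls: Trim58, a ubiquitin ligase (9.68, 7.38 and 10.4 to 4.62, 4.81 and 3.49), Ube2o, which drives removal of ribosomes (46.7, 33.6 and 43.85 to 22.6, 22.4 and 18.7), and Slc25a39, a mitochondrial carrier (163, 149 and 135 to 80.6, 92.55 and 74.1). Phospho1, a phosphatase, fell from 9.03, 6.99 and 8.03 to 0.65, 1.07 and 0.81 (log2 change -2.29). The Phospho1 call ended without any 1 of the 6 libraries, those of Trim58 and Ube2o without HS 1 or 3 or HS_AOSFMT 1, 2 or 3, and that of Slc25a39 without HS 1, 2 or 3 or HS_AOSFMT 1 or 3. HS_conFMT 2 was as low for these genes, at 68.8 for Bpgm, 78.3 for Fech and 0.71 for Phospho1, and against HS_conFMT none of Bpgm, Fech, Alas2 and Phospho1 was called (limma adjusted p = 0.164 to 0.222).

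Cell division and DNA replication genes had mostly negative changes without passing the test. Of 24 division genes 0 were called by limma, and all 24 were negative (median -0.38, -0.47 without haemoglobin). Of 28 replication genes 0 were called and 26 were negative (median -0.34). The summed levels of both lists overlapped between the groups. HS_AOSFMT 2, at 1243 FPKM for division and 1400 for replication, lay above HS 2, at 1195 and 1228. The proliferation marker Mki67 stood at 163, 116 and 124 FPKM in HS and 77.2, 108 and 71.8 in HS_AOSFMT (limma adjusted p = 0.157), and at 57.3 in HS_conFMT 2. The erythroid list moved with these genes, and its part in their levels was not tested.

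The 8 stable falls were other genes. Capn5, a calcium-dependent protease, stood at 10, 7.43 and 8.21 FPKM in HS and 4.14, 5.05 and 4.3 in HS_AOSFMT (log2 change -0.79, limma adjusted p = 0.00427). Spon2, a secreted matrix protein known to aid innate recognition of microbes, fell from 6.17, 6.33 and 4.79 to 2.61, 2.28 and 1.78 (log2 change -1.07), with HS_conFMT 2 as low at 1.96. Kctd14 fell from 12.1, 12.8 and 10.5 to 4.58, 6.6 and 5.73, and Hscb, a chaperone of iron-sulphur cluster assembly, from 40.1, 37.3 and 33.9 to 28.2, 24.3 and 24.2. Phka2, a subunit of phosphorylase kinase, fell from 8.14, 6.86 and 7.92 to 5.11, 5.18 and 4.93. Tcf3, the E protein of early lymphocytes that ID1 antagonises, fell from 62.4, 54.4 and 56.9 to 44.8, 44.8 and 45.2. Sil1, named above, is also among them. Capn5, Hscb, Phka2 and Tcf3 were lower in the 3 HS_AOSFMT libraries than in all 15 others, as were 1.36% of all genes.

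The largest falls were transcripts of exocrine pancreas. Of 28 tested acinar genes 22 were called lower (median -6.61), 3 without haemoglobin and 20 with median-ratio scaling, and 0 were stable: 5 stayed called without HS 2 and 0 without any other of the 6 libraries. Chymotrypsinogen B (Ctrb1) stood at 4980.4, 567 and 720.1 FPKM in HS and 1.77, 0.49 and 8.24 in HS_AOSFMT, and it varied widely elsewhere, with 54.5, 12.6 and 757 in HS_conFMT and 438, 69.1 and 3.3 in control. The antimicrobial lectin gene Reg3b, which pancreas and gut share, stood at 9.16, 1.6 and 10.45 in HS and 0, 0 and 0.12 in HS_AOSFMT, and Dmbt1, a mucosal scavenger receptor, at 57.5, 6.43 and 14.02 in HS and 0.1, 0.03 and 0.14 in HS_AOSFMT. The highest values of the series were in HS 1, HS 3 and HS_AOS 1, with 15.97 for Reg3b and 46.6 for Dmbt1 in HS_AOS 1, whose acinar share was 3.70%. Of 10 pancreatic endocrine genes 0 reached the level for testing. Adipocyte genes went the other way without a call among 10 (median 1.42): adiponectin (Adipoq) stood at 0.83, 4.18 and 0.95 in HS, 8.61, 8.12 and 4.64 in HS_AOSFMT and 10.8, 17.8 and 1.81 in HS_conFMT. These tissues lie close to the spleen, and whether their cells were in the samples was not tested. Gdpd3, a lysophospholipase D, stood at 24.7, 2.1 and 50.55 in HS and 0.47, 0.39 and 0.24 in HS_AOSFMT (log2 change -3.55, limma adjusted p = 0.0486), and it was also low in HS_AOS (0.45, 0.31 and 0.45) and control (0.43, 0.66 and 0.38). The calls of Reg3b, Dmbt1 and Gdpd3 each ended without HS 1 or 3 or HS_AOSFMT 1, 2 or 3.

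Markers of other cell types were checked for a shift in makeup. Of 18 mature B cell genes 0 were called by limma (median 0.22), of 19 neutrophil granule genes 0 (0.11, but 0.45 without HS 1 and -0.22 without HS 2), of 18 platelet genes 0 (-0.26, but -0.046 without HS 1 and -0.43 without HS 2) and of 17 endothelial genes 0 (0.19). Among 19 NK and cytotoxic genes 2 were called higher (median 0.23), against 8.08% of all genes, and 0 after either rescaling. In 15 red pulp and marginal zone macrophage genes 1 was called lower: Slc40a1, the iron exporter ferroportin, fell from 53.8, 71.9 and 77.2 to 46.4, 38.8 and 46.6 FPKM, lower in the 3 HS_AOSFMT libraries than in the 15 others, a call lost without haemoglobin (limma adjusted p = 0.064) and without HS 2 or 3 or HS_AOSFMT 1, 2 or 3. Sdc1, the plasma cell marker CD138, fell from 9.07, 5.62 and 5.26 to 3.62, 3.53 and 3.92 and was the 1 called of 15 plasma cell genes, with HS 1 the highest, and lost its call without HS 1 or HS_AOSFMT 1, 2 or 3. Of 66 lists with at least 5 tested members, 24 had no called member. The sign of the median changed in 10 of the 66 without haemoglobin and in 14 with median-ratio scaling, each of them a list whose median was 0.11 or less as deposited.

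Placed beside the other groups that had the diet and STZ, the lead genes were higher in HS_AOSFMT each time. Against HS_conFMT, limma called 624 genes higher (4.81%) and 135 lower (1.04%), and against HS_AOS 833 (6.42%) and 278 (2.14%). With HS_conFMT 2 set aside, an alternative chosen after seeing the data, 1042 genes were called higher against HS_conFMT and 159 lower. These comparisons share the 3 HS_AOSFMT libraries with the one above and are not independent of it. Stat4 changed by 1.61 against HS_conFMT and by 1.48 against HS_AOS on the log2 scale (limma adjusted p = 1.40e-05 and 2.27e-05). Crem changed by 1.66 and 1.83, Pde3b by 1.32 and 1.20, and Fkbp5 by 1.05 and 1.27. Arg2 changed by 2.06 and 1.68, more than the 1.47 against HS. The glucocorticoid list had 4 of 18 members called against HS_conFMT (median 0.25) and 9 against HS_AOS (median 0.64). The cAMP list had 7 of 15 and 9 of 15 called (medians 0.42 and 0.58), and the T cell receptor list 0 of 20 and 7 of 20 (medians 0.35 and 0.55). The acinar list had 0 of 28 and 4 of 28 called lower.

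The question in the title concerns genes that diet and STZ had altered. In all, 2 genes were called between HS and control, Plin2 and Kap, both picked here for that reason. Plin2, the coat protein of lipid droplets, stood at 23.2, 25.5 and 22.2 FPKM in control, 41.9, 39.1 and 39.3 in HS and 44.3, 48.1 and 44.01 in HS_AOSFMT. It was not called between HS_AOSFMT and HS (limma adjusted p = 0.196) and remained above control (log2 change 0.92, adjusted p = 2.67e-05). Kap, an androgen-regulated kidney transcript, stood at 13.3, 20.1 and 20.97 in control, 0.31, 0.31 and 1.67 in HS and 0.98, 0.16 and 0 in HS_AOSFMT. Oxct1, the mitochondrial enzyme that lets tissues use ketone bodies, was picked after its values were seen: it stood at 34.2, 35.4 and 32.2 in control, 23.6, 27.05 and 23.6 in HS and 33.9, 33.3 and 32.2 in HS_AOSFMT. It was a stable rise against HS (log2 change 0.41, limma adjusted p = 0.00525) and was not called against control (log2 change -0.033, adjusted p = 0.769), while HS_conFMT had 25.2, 28.4 and 27.4 and HS_AOS 23.6, 23.8 and 24.1. The lead rises were not called between HS and control. This is not particular to them, since 0 of the 1048 called rises and 0 of the 149 called falls were. Stat4 stood at 15.1, 17.8 and 19.02 in control, Crem at 5.7, 8.5 and 8.41 and Fkbp5 at 8.82, 9.93 and 9.56, close to their HS values. Against control they changed by 1.63, 1.68 and 1.41 on the log2 scale.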

How the data were processed

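RNA from spleen for 18 libraries, 3 in each of 6 groups, was isolated with Trizol and a column kit and sequenced on an Illumina instrument, per the labels' protocols. Bowtie 0.12.2 and the genome build mm10 are named in the submitters' processing notes. The tool that made the values is not given in the sources used here. Values per gene were deposited by the authors as 1 table, read here as FPKM from its values (2 decimals, totals that differ between libraries), since the header names no unit. It holds no read counts, so the sequencing depth is unknown and no counting interval was made. The file held 19326 entries, 26 of them symbols turned into dates and 1 symbol on 2 lines, and 418 were at 0 in every library.

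Values were taken as log2(FPKM + 1), which understates changes of low genes. Genes that reached 1 FPKM in 3 or more libraries were tested with limma 3.58.1 in R 4.3.3 (all 18 libraries, group as the sole factor, trended and robust variance, 12 residual and 3.38 prior degrees of freedom, two-sided), and p-values were adjusted by Benjamini-Hochberg over the 12969 genes. A gene was called at an adjusted p under 0.05, and 3631 had an unadjusted p under 0.05. The rescalings, to the total without the 11 haemoglobin genes in the file and by median ratios, were applied to FPKM before the logarithm. No libraries were identical.

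Genes named are the 20 called per direction with the largest change whose libraries do not overlap, up to 15 per direction with the smallest p among the stable calls, and up to 4 per list with the smallest p, with members that define a list; predicted genes were left out, and others are said to be chosen after their values were seen. The comparison's members and the 69 gene lists were chosen with earlier results of these data known. Alternatives were another pseudocount (0.1), no filter, a filter of 9 libraries, both rescalings, a fit to the 6 libraries, a replicate block, plain variance moderation, each library left out and libraries set aside for their acinar or haemoglobin share, of which setting HS_conFMT 2 aside was chosen after seeing the data. Positions are from GENCODE M21, matched by symbol for 98.5% of genes tested, and promoter letters from RefSeq. The fit was tested on simulated data. Some genes are not reported here by name.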

Additional observations from a re-analysis of the deposited data

How the results depend on the processing

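Against HS, rescaling without haemoglobin gave 272 rises, and median-ratio scaling gave 508 rises and 283 falls. A fit to the 6 libraries alone gave 235 falls. Setting aside HS 1, HS_AOS 1 and control 1, the libraries richest in acinar transcripts in their groups, left 348 rises and 40 falls, and setting aside HS_conFMT 2 gave 232 falls. Leaving out 1 library gave 184 to 657 rises and 19 to 94 falls. Against HS_conFMT, the total without haemoglobin gave 230 rises and 210 falls, median-ratio scaling 303 falls, setting aside HS_conFMT 2 gave 1042 rises, and leaving out 1 HS_AOSFMT library 199 to 221 rises and 36 to 58 falls. Against HS_AOS, the total without haemoglobin gave 373 rises, median-ratio scaling 503 falls, setting aside HS 1, HS_AOS 1 and control 1 gave 522 rises and 182 falls, and leaving out 1 HS_AOSFMT library 300 to 381 rises and 83 to 121 falls. The remaining alternatives kept these counts within 1.5 times.

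With the replicate number as a block, the 6 libraries gave 62 rises and 15 falls, and all 18 gave 1270 and 183. The labels do not say whether the numbers pair the libraries, and 3 correlations cannot decide it. Deviations of HS and HS_AOSFMT libraries with the same number correlated at 0.033, -0.107 and 0.021. Those with different numbers ran from -0.153 to 0.164. A batch shared by number was not tested.

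Of the 298 named genes, 0 were called with the opposite direction, or changed direction after a call, in these fits. The call ended for 60 without haemoglobin, 26 with median-ratio scaling, 101 in the blocked fit to 6 libraries and 35 to 87 when a library was left out, and the causes were not tested. The 298 include list members that were not called as deposited and had no call to lose, so the share of calls that ended is larger than these counts over 298. Depth is unknown, and calls outside the stable set ended under at least 1 of the alternatives that define it.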

Other observations

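Ribosomal protein genes and splicing factors moved little and mostly upward on the deposited scale. Of 29 genes of the large ribosomal subunit 3 were called higher against HS and of 28 of the small subunit 3, against 8.08% of all genes. The medians were 0.14 and 0.18 on the log2 scale. Without haemoglobin 2 and 0 were called, without HS 1, HS 3 or HS_AOSFMT 1 none was called by limma, and 0 were stable. Of 24 splicing factors 4 were called higher, against 8.08% of all genes. Among the 4 were Srsf7 (119, 142 and 126 FPKM in HS and 177, 169.6 and 168 in HS_AOSFMT) and Sf3b1, a core part of the spliceosome (141, 167 and 155 in HS and 212, 202 and 206 in HS_AOSFMT). Leaving out HS 2 kept 3 called higher and leaving out any other of the 6 libraries 0. Without haemoglobin none of the 4 was called higher and 2 other splicing factors were called lower.

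Transcripts typical of liver varied within groups. The 10 tested hepatocyte genes had a median of 0.66 with 9 positive, and 0 were called by limma. The median was -0.31 without HS_AOSFMT 1, 0.26 without HS 2 and 1.27 without HS_AOSFMT 3. Albumin (Alb) stood at 17.97, 4.58 and 12.7 FPKM in HS and 126, 15.3 and 3.58 in HS_AOSFMT, with 47.1, 51.9 and 79.9 in HS_conFMT and 7.59, 105 and 97.95 in control. Scd1, a desaturase of fatty acid synthesis, stood at 58.6, 75.8 and 68.3 in HS and 143, 125 and 133 in HS_AOSFMT (log2 change 0.98, limma adjusted p = 0.0258), a call that ended without haemoglobin (adjusted p = 0.0604) and without HS 1 or 3 or HS_AOSFMT 1, 2 or 3. Sirpa, the macrophage receptor that reads the CD47 signal of living cells, was lower, at 60.2, 65.2 and 61.1 in HS and 47.95, 47.6 and 54.25 in HS_AOSFMT (log2 change -0.31, limma adjusted p = 0.0265), and kept its call without haemoglobin (adjusted p = 0.0134) but lost it without HS 1, 2 or 3 or HS_AOSFMT 1 or 2.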
